A study of Mus musculus with 12 samples.

Results

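The genes described here are 30 mouse germ cell genes that act in meiotic entry, on the chromosome axis, in the synaptonemal complex and in recombination. They were taken by name from a list drawn up with earlier results of these data known. All 30 were measured, out of 21688 genes on the arrays. Each was read by 1 probe set, except Hfm1, for which the brighter of 2 was used. Expression had been profiled in fully grown germinal vesicle (GV) oocytes, the large oocytes that wait in late prophase of the first meiotic division. There were 4 genotypes with 3 arrays each, and the series asked what Polycomb repression does in oogenesis. Each array held RNA from 50 oocytes pooled from several females and amplified by PCR before labelling. The labels do not say whether separate pools drew on the same females, and each p-value rests on the spread from pool to pool, which may be partly technical.

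The double mutant (Ring1-/-Rnf2F/FZp3-cre) carried 2 null copies of Ring1 and 2 floxed copies of Rnf2 together with a Cre recombinase under the Zp3 promoter, which becomes active in growing oocytes. The Ring1 mutant (Ring1-/-Rnf2F/F) had the same Ring1 and Rnf2 alleles and no Cre. The Rnf2 mutant (Ring1+/+Rnf2F/FZp3-cre) had intact Ring1 and the floxed Rnf2 with Cre. The control (Ring1+/+Rnf2F/F) had intact Ring1 and the floxed Rnf2 without Cre. All genotypes therefore carried floxed Rnf2, and no group had Cre without it, so that Rnf2 loss and the presence of Cre cannot be told apart. The strain was mixed 129/Sv and C57BL/6J. The females were 5 to 10 weeks old and had received 5 U of PMSG, a hormone that makes follicles grow, and their oocytes were taken 46 h later in medium with 2.5 µM milrinone, which keeps oocytes from resuming meiosis.

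Ring1 and Rnf2 are the alternative E3 ligases of Polycomb repressive complex 1, which places ubiquitin on histone H2A at repressed genes. In mouse embryonic stem cells, a variant of that complex that contains E2F6, MGA and MAX is known to hold many germ cell genes silent. In females, the genes of meiotic prophase are switched on in the fetal ovary, when sister chromatids are bound by meiotic cohesin along an axis, homologous chromosomes are joined by the synaptonemal complex, and DNA breaks are made and repaired into crossovers. By the time an oocyte grows and Zp3-cre acts, synapsis and recombination are over, while cohesin still has to hold the chromosomes together until the divisions.

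Rnf2 transcript followed the labels. It read 5.90, 5.68 and 6.01 log2 in the double mutants, 8.43, 8.53 and 8.43 in the Ring1 mutants, 5.60, 5.93 and 6.04 in the Rnf2 mutants and 8.33, 8.44 and 8.23 in the controls. Both genotypes with Cre lay below both without it, and Rnf2 fell by 2.47 ± 0.11 log2 in the double mutant against control (standard error; limma, adjusted p = 1.05e-08). Ring1 read between 3.50 and 3.99 on all 12 arrays, close to background, with no separation of the genotypes, so it does not check the Ring1 labels. All 14 oocyte markers were above background in every genotype. Their summed linear signal was 25382 to 26129 in the double mutants, 27279 to 27994 in the Ring1 mutants, 27285 to 27784 in the Rnf2 mutants and 27060 to 28056 in the controls, so the double mutants lay below the rest without overlap. In the double mutant against control 4 of the 14 fell, among them Figla (-0.89 log2; limma, adjusted p = 1.22e-05), and 1 rose. Of 20 granulosa and cumulus markers, 10 were above background in the double mutants and 12 in the controls, among them Cyp19a1, Inha, Inhba and Cyp11a1, which averaged 7.06, 5.82, 5.74 and 4.98 log2 in the double mutants and 7.83, 6.50, 6.22 and 6.26 log2 in the controls. Arrays of Cyp11a1 overlapped, at 6.50, 4.36 and 4.07 in the double mutants and 7.34, 6.17 and 5.28 in the controls. Ptgs2 averaged 9.08 log2 in the double mutants and 4.95 in the controls, and Nr5a2 8.78 and 8.40. Against control, 2 of the 20 were called higher in the double mutant, 2 lower and 16 not called (limma). Over all genes 14.4% rose and 17.5% fell there. Amh, Fshr and Lhcgr of that list were below background in every genotype. The summed linear signal of the 20 was 1404 to 1688 in the double mutants, 884 to 1081 in the Ring1 mutants, 1181 to 1530 in the Rnf2 mutants and 936 to 1328 in the controls. Without Ptgs2 it was 874 to 1129 in the double mutants, 846 to 1038 in the Ring1 mutants, 1114 to 1474 in the Rnf2 mutants and 909 to 1291 in the controls. Of 12 markers of theca, stroma and endothelium, 8 were above background in the double mutants and 7 in the controls, with sums of 603 to 610 in the double mutants and 749 to 762 in the controls. Myh11 averaged 6.76 log2 in the double mutants and 7.74 in the controls, and Pecam1 7.75 and 8.07. Dcn and Kdr were higher in the double mutants, at 3.91 and 4.19 log2 against 3.28 and 3.87 in the controls. Against control, 2 of the 12 were called higher in the double mutant, 2 lower and 8 not called (limma). Of 7 blood and immune markers, 3 were above background in each, with sums of 233 to 258 in the double mutants and 148 to 150 in the controls, or, without C1qb, 60.9 to 68.7 in the double mutants and 63.0 to 65.0 in the controls. The part of these other cells in the results below was not tested. Values within a genotype correlated at 0.996 to 0.997 across genes, and double-mutant arrays with all others at 0.977 to 0.982.

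The values are log2 intensities, which allow a gene to be compared between arrays but not with another gene. To say which genes were on, each was set against a background level of 3.83 log2. That is the value that 95% of 1053 olfactory receptor genes did not exceed in the mean of all 12 arrays, mutants included. In the controls 17 of the 30 meiotic genes were above that level, where 58.2% of all genes were. With the 99th percentile of the same olfactory receptor genes (6.29 log2) only 8 were, namely Dazl, Sycp2, Sycp3, Syce2, Tex12, Psmc3ip, Mnd1 and Tex15. The share of all genes above this stricter level was not counted. The 17 included 6 of the 7 axis and cohesin genes (Sycp2, Sycp3, Hormad1, Hormad2, Smc1b and Stag3), 3 of the 4 genes of the centre of the synaptonemal complex (Syce1, Syce2 and Tex12) and 3 of the 4 strand-exchange genes (Psmc3ip, Mnd1 and Tex15). Fewer genes of the other roles were on: Dazl and Tex14 among 7 of meiotic entry and germline RNA regulation, Mei1 among 3 of break formation, and Msh4 and Mlh3 among 5 of crossover formation. Mei1 and Mlh3 were above the background level by only 0.115 and 0.099 log2 in the control mean. Mlh3 lay below that level in control replicate 3 (3.77 log2). Stra8, Prdm9 and Spo11, which start the programme and its breaks, read 2.33 to 2.74 log2 in the controls, within the range of the olfactory receptor genes, whose median was 2.58. In the double mutants 21 of the 30 were above background, the added ones being Meioc, Rbm46, Sycp1 and Dmc1. For that genotype the share of all genes above background was not counted.

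**Figure D1:**
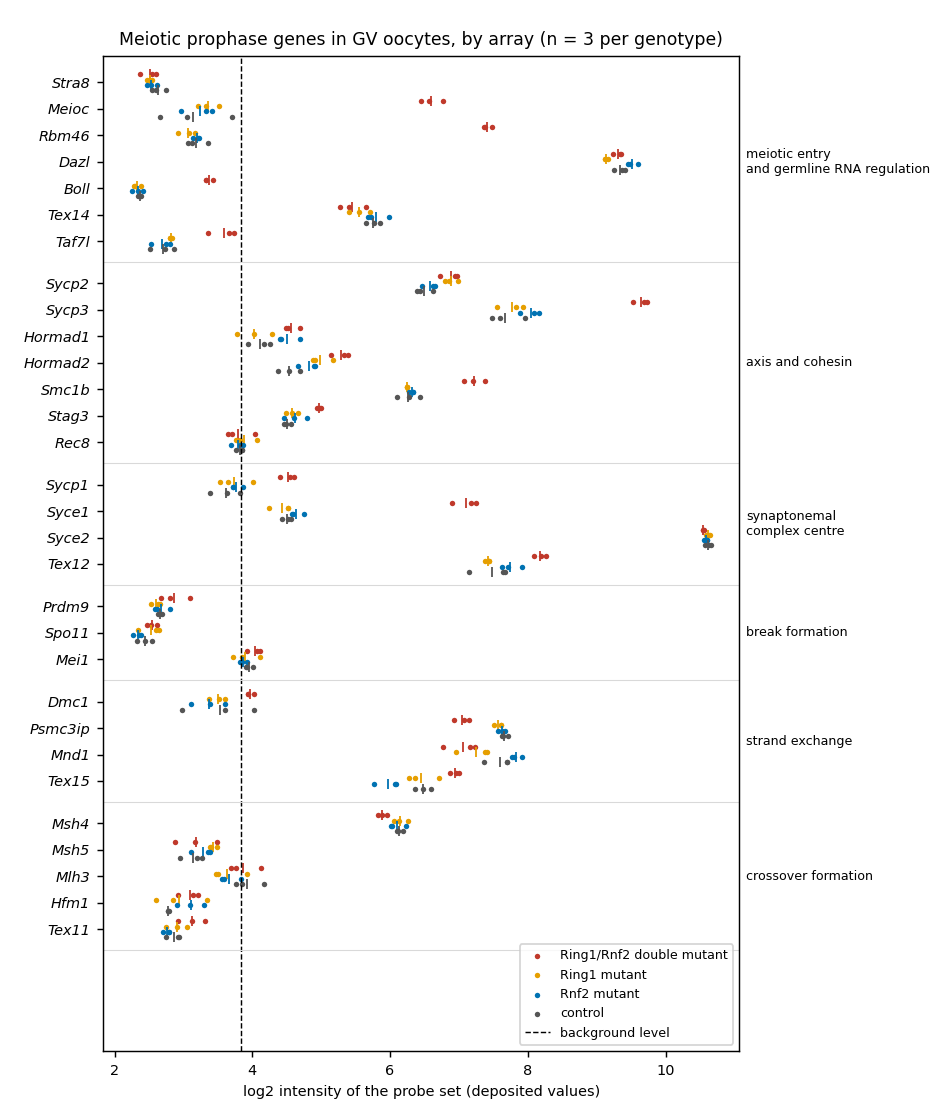
Log2 intensity (horizontal axis) of each of the 30 meiotic genes on each array, with genes grouped by role down the page, 1 dot per array, a short vertical bar at the mean of the 3 arrays and 1 colour per genotype. The dashed line marks the background level of 3.83 log2. Rbm46 and Meioc lie left of the line in every array of the Ring1 mutants, Rnf2 mutants and controls and right of it in the 3 double-mutant arrays, whereas Syce2 lies between 10.53 and 10.65 log2 in all 12.

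When both ligases were lost, 14 of the 30 genes rose and 3 fell against control, where 14.4% of all genes rose and 17.5% fell (limma, adjusted p under 0.05 over 21688 genes, 31.9% called in all). The number that fell was 1 without control replicate 2, 2 without double-mutant replicate 1, double-mutant replicate 3 or control replicate 1, and 6 with arrays centred on their median. The median change of the 30 genes was 0.35 log2, against -0.04 over all genes. With arrays centred on their median these medians were 0.23 and -0.16 log2, and with arrays centred on the most abundant 25% of genes 0.46 and 0.07 log2. Of all genes, 3126 were higher and 3801 lower as deposited, 2257 higher and 7429 lower with median centring, and 4768 higher and 2344 lower with centring on the most abundant 25%. In 15 of the 30 genes every double-mutant array lay above every control array, and in 5 every one lay below. Over all genes those shares were 18.3% and 24.8%. The rises ran from 0.40 to 4.23 log2 and the falls from -0.61 to -0.25. In 4 of the 30 the rise was at least 2-fold, where 3.06% of all genes reached that. Among the genes above background in the controls 9 of 17 rose and 3 fell, and among those not above it 5 of 13 rose and none fell; over all genes the shares that rose were 17.9% and 9.57%. By role, the rises comprised 4 of 7 genes of meiotic entry and germline RNA regulation, 6 of 7 of the axis and cohesin, 3 of 4 of the synaptonemal complex centre, 0 of 3 of break formation, 1 of 4 of strand exchange and 0 of 5 of crossover formation. In these pools of oocytes, a change in fewer oocytes and a change in the RNA of every oocyte cannot be told apart.

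**Figure D2:**
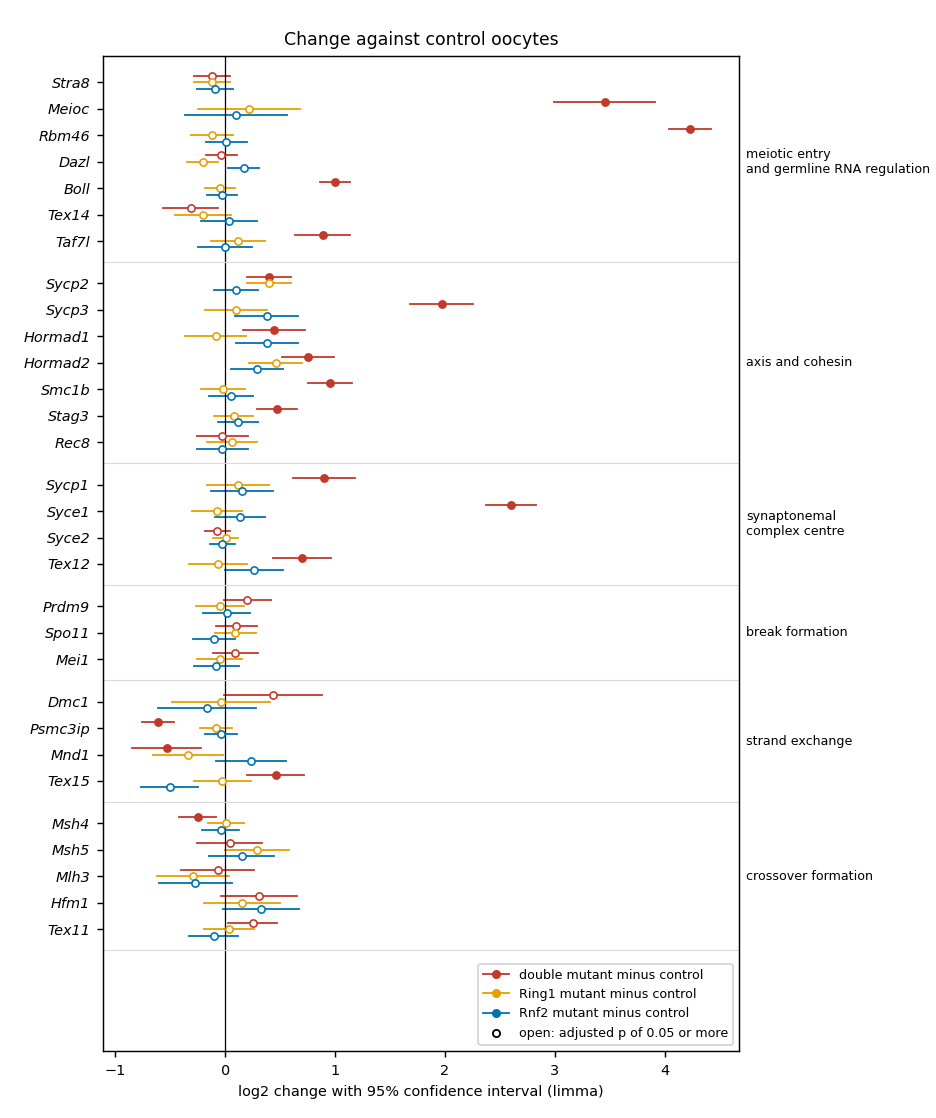
Log2 change against control (horizontal axis) of each gene in the double mutant, the Ring1 mutant and the Rnf2 mutant, with 95% confidence intervals from limma. Filled points passed an adjusted p of 0.05 and open points did not. All filled points belong to the double mutant, and Rbm46, Meioc, Syce1 and Sycp3 stand farthest to the right.

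Among the genes of meiotic entry and germline RNA regulation, Rbm46 changed most of all 30. It encodes a germline RNA-binding protein that mouse spermatocytes need to go through prophase, and it lies on chromosome 3. Rbm46 read 7.38, 7.48 and 7.36 log2 in the double mutants, 3.17, 2.93 and 3.09 in the Ring1 mutants, 3.13, 3.23 and 3.21 in the Rnf2 mutants and 3.12, 3.06 and 3.36 in the controls. Only the double-mutant arrays were above background, and the other genotypes overlapped each other. The fitted rise against control was 4.23 ± 0.09 log2 (limma, adjusted p = 2.15e-11), and since the controls were at background the level was at least 11.9-fold higher in the double mutant. Meioc, on chromosome 11, encodes a partner of the RNA helicase YTHDC2 that keeps mouse germ cells from leaving prophase early. It read 6.57, 6.76 and 6.44 log2 in the double mutants, 3.33, 3.52 and 3.21 in the Ring1 mutants, 3.32, 2.97 and 3.42 in the Rnf2 mutants and 2.66, 3.71 and 3.05 in the controls. Again only the double mutants were above background, and the fitted rise against control was 3.45 ± 0.21 log2 (limma, adjusted p = 1.26e-07), at least 6.78-fold.

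Boll and Taf7l rose too, but from so low a level that both genotypes stayed below background. The changes of these genes are fitted values and not measured folds. Boll, an RNA-binding protein of the DAZ family that mouse spermatids need, read 3.33, 3.33 and 3.43 log2 in the double mutants, 2.28, 2.39 and 2.30 in the Ring1 mutants, 2.41, 2.34 and 2.25 in the Rnf2 mutants and 2.39, 2.37 and 2.34 in the controls (0.998 ± 0.06 against control; limma, adjusted p = 1.35e-07). It is on chromosome 1, as is Rnf2, whose floxed copies were carried by all genotypes. Taf7l, an X-linked germ cell relative of the general transcription factor subunit TAF7, read 3.36, 3.66 and 3.74 log2 in the double mutants, 2.80, 2.81 and 2.83 in the Ring1 mutants, 2.81, 2.53 and 2.75 in the Rnf2 mutants and 2.51, 2.73 and 2.86 in the controls (0.89 ± 0.11 against control; limma, adjusted p = 6.75e-05). For both genes the 3 double-mutant arrays were the highest of the 12. Dazl, another RNA-binding protein of that family, was well above background throughout, at 9.24, 9.33 and 9.35 log2 in the double mutants, 9.12, 9.16 and 9.12 in the Ring1 mutants, 9.46, 9.59 and 9.48 in the Rnf2 mutants and 9.24, 9.37 and 9.41 in the controls. Its double-mutant and control arrays overlapped, with a 95% interval of -0.18 to 0.11 log2 for their difference. Tex14, needed for the bridges between male germ cells in mice, read 5.66, 5.27 and 5.40 log2 in the double mutants, 5.41, 5.55 and 5.71 in the Ring1 mutants, 5.67, 5.98 and 5.72 in the Rnf2 mutants and 5.66, 5.76 and 5.86 in the controls. The double mutant differed from control by -0.32 ± 0.12 log2 and did not pass (limma, adjusted p = 0.0567). Stra8, the transcription factor induced by retinoic acid at meiotic entry, stayed within 2.37 and 2.74 log2 on all 12 arrays, with an interval of -0.29 to 0.04 log2 for double mutant minus control.

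The promoters of these genes were compared for motifs known from the variant Polycomb complex and from meiotic entry. Windows of 300 bases, from 250 before to 50 after each transcript start, came from RefSeq on mouse build GRCm38.p6 and covered 27 of the 30 genes, all but Spo11, Tex15 and Tex11. They were searched on both strands for CACGTG, the E-box bound by MGA-MAX, for GGCGGGAA, a motif of E2F factors, and for CNCCTCAG, the motif of STRA8. Windows are printed 5′ to 3′ on the gene's strand with matches in capitals, and positions count from the transcript start, the base before it being -1. Rbm46 (chr3:82876434-82876733, minus strand) and Taf7l (chrX:134476441-134476740, minus strand) are shown as risen genes with an E-box, at -34 and -49, and Meioc (chr11:102665335-102665634, plus strand) as a risen gene with no match to any of the 3 motifs. Rbm46 also has a match to the STRA8 motif at -16.
Rbm46: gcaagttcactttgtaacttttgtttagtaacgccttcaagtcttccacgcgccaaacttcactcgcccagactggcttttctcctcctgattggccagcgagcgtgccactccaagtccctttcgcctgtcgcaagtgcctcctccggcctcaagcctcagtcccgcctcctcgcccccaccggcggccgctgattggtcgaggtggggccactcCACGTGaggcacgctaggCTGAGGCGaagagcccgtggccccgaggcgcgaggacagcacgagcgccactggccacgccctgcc
Taf7l: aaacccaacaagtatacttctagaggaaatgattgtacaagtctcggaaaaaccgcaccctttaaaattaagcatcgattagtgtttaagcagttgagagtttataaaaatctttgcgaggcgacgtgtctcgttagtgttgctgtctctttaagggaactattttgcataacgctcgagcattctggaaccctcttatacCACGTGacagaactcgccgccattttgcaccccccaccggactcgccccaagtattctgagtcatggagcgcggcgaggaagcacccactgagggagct
Meioc: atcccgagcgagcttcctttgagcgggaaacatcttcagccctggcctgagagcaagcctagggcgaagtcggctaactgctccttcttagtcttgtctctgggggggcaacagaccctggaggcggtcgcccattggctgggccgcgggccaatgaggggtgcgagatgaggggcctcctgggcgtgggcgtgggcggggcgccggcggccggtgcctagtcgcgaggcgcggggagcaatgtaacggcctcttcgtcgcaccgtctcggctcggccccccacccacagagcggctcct

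The chromosome axis was the role in which most genes rose. Sycp3, a structural protein of the axis that later forms the lateral element of the synaptonemal complex, was already on in the controls. Sycp3 read 9.68, 9.73 and 9.52 log2 in the double mutants, 7.83, 7.93 and 7.55 in the Ring1 mutants, 8.10, 7.89 and 8.16 in the Rnf2 mutants and 7.47, 7.96 and 7.59 in the controls. The double mutants stood 1.36 log2 or more above every other array, and the rise against control was 1.97 ± 0.13 log2 (limma, adjusted p = 2.63e-07). Its partner Sycp2 was at a like level in the double and Ring1 mutants. Sycp2 read 6.72, 6.95 and 6.98 log2 in the double mutants, 6.86, 6.99 and 6.80 in the Ring1 mutants, 6.47, 6.63 and 6.65 in the Rnf2 mutants and 6.43, 6.63 and 6.40 in the controls. The double and Ring1 mutants overlapped, with an interval of -0.20 to 0.20 log2 for their difference, and both lay above the controls. The rise passed in the double mutant (0.40 ± 0.09 log2; limma, adjusted p = 0.00477) and not in the Ring1 mutant (0.40 ± 0.09 log2; limma, adjusted p = 0.0873). The Sycp3 window (chr10:88459337-88459636, plus strand) is shown because it holds 2 E-boxes, at -64 and -43, whereas the Sycp2 window holds no match to any of the 3 motifs.
Sycp3: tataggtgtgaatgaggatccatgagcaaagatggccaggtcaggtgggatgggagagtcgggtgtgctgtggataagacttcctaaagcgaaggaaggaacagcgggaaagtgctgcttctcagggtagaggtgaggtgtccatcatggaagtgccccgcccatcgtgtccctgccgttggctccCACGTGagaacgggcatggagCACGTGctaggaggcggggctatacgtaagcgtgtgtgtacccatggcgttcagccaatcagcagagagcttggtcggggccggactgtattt

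Hormad1 and Hormad2 are axis proteins with a HORMA domain that mark stretches not yet synapsed. Hormad2 read 5.38, 5.33 and 5.15 log2 in the double mutants, 4.89, 4.91 and 5.17 in the Ring1 mutants, 4.91, 4.66 and 4.89 in the Rnf2 mutants and 4.37, 4.69 and 4.53 in the controls. All arrays of all 3 mutant genotypes but one of the Rnf2 mutants were above every control array, and only the double mutant passed (0.75 ± 0.11 log2 against control; limma, adjusted p = 0.000186). Hormad1 read 4.49, 4.52 and 4.69 log2 in the double mutants, 4.29, 3.78 and 4.02 in the Ring1 mutants, 4.69, 4.41 and 4.41 in the Rnf2 mutants and 4.25, 4.16 and 3.94 in the controls. Its double-mutant arrays were above those of the controls (0.45 ± 0.13 log2; limma, adjusted p = 0.0186) but overlapped those of the Rnf2 mutants, with an interval of -0.22 to 0.35 log2 for that difference. The call against control was lost without double-mutant replicate 3 (adjusted p = 0.0714) and without control replicate 3 (adjusted p = 0.0799).

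Meiotic cohesin is the ring that holds sister chromatids together in oocytes from the fetal ovary to the divisions. Smc1b, its SMC subunit, read 7.21, 7.38 and 7.07 log2 in the double mutants, 6.24, 6.24 and 6.24 in the Ring1 mutants, 6.33, 6.27 and 6.34 in the Rnf2 mutants and 6.09, 6.43 and 6.27 in the controls. The double mutants lay above all other arrays, by 0.95 ± 0.09 log2 against control (limma, adjusted p = 6.57e-06). Stag3, the meiotic STAG subunit, read 4.94, 4.98 and 4.99 log2 in the double mutants, 4.58, 4.66 and 4.49 in the Ring1 mutants, 4.60, 4.80 and 4.46 in the Rnf2 mutants and 4.45, 4.49 and 4.56 in the controls. It too was highest in the 3 double-mutant arrays, with a smaller rise of 0.47 ± 0.08 log2 (limma, adjusted p = 0.000781). Rec8, the meiotic kleisin that is cut to release the chromosomes, was the member of this role that was not called. Rec8 lay between 3.64 and 4.06 log2 on all 12 arrays, around background, with an interval of -0.26 to 0.21 log2 for double mutant minus control.

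In the centre of the synaptonemal complex, Syce1 changed most. It encodes a central element protein, and it read 7.24, 6.89 and 7.18 log2 in the double mutants, 4.52, 4.52 and 4.24 in the Ring1 mutants, 4.75, 4.59 and 4.57 in the Rnf2 mutants and 4.52, 4.56 and 4.43 in the controls. The double mutants were far above the other 3 genotypes, whose arrays lay between 4.24 and 4.75 log2, and the rise against control was 2.60 ± 0.10 log2 (limma, adjusted p = 2.96e-09). Sycp1, the transverse filament that spans the complex, read 4.60, 4.40 and 4.54 log2 in the double mutants, 3.64, 4.02 and 3.53 in the Ring1 mutants, 3.86, 3.72 and 3.72 in the Rnf2 mutants and 3.82, 3.64 and 3.38 in the controls. All 3 control arrays were below background, the highest by a small margin, so Sycp1 was at least 1.61-fold higher in the double mutant (fitted 0.90 ± 0.13 log2; limma, adjusted p = 0.000167). Tex12, a central element protein that works with SYCE2, read 8.09, 8.26 and 8.20 log2 in the double mutants, 7.38, 7.44 and 7.43 in the Ring1 mutants, 7.71, 7.62 and 7.91 in the Rnf2 mutants and 7.64, 7.66 and 7.15 in the controls. The double mutants were again the highest 3 arrays, by 0.70 ± 0.12 log2 against control (limma, adjusted p = 0.000763). Syce2 itself was high everywhere, with an interval of -0.19 to 0.04 log2 for double mutant minus control. The Tex12 window (chr9:50561219-50561518, minus strand) is shown because it is the window among the risen genes that holds all 3 motifs, with an E-box at -93, the E2F motif at -146 and the STRA8 motif at -7.
Tex12: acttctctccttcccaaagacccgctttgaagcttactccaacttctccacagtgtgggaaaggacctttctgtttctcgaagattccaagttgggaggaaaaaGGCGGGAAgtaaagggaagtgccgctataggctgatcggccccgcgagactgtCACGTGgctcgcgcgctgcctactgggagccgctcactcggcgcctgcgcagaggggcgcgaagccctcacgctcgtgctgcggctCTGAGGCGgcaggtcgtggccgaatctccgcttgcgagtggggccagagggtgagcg

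None of the 3 genes of break formation was called in any comparison, where the double mutant against control called 31.9% of all genes. Prdm9, the histone methyltransferase that places the breaks, had a 95% interval of -0.01 to 0.42 log2 for double mutant minus control. For Spo11, the enzyme that makes them, it was -0.09 to 0.29 log2, and for Mei1, which is needed for them, -0.11 to 0.29 log2. Prdm9 and Spo11 were below background on all arrays, the highest being 3.10 log2, and Mei1 lay between 3.72 and 4.12 log2.

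The strand-exchange genes moved in both directions. Psmc3ip and Mnd1 encode the HOP2-MND1 pair that stimulates the recombinase DMC1, and both fell. Psmc3ip read 7.14, 6.93 and 7.07 log2 in the double mutants, 7.50, 7.61 and 7.60 in the Ring1 mutants, 7.67, 7.57 and 7.62 in the Rnf2 mutants and 7.62, 7.64 and 7.72 in the controls. The double mutants were the lowest 3 arrays, by 0.61 ± 0.07 log2 against control (limma, adjusted p = 2.19e-05). Mnd1 read 6.77, 7.24 and 7.15 log2 in the double mutants, 6.96, 7.40 and 7.38 in the Ring1 mutants, 7.80, 7.76 and 7.91 in the Rnf2 mutants and 7.70, 7.70 and 7.36 in the controls. The double mutants lay below the controls, by 0.53 ± 0.15 log2 (limma, adjusted p = 0.0134), but overlapped the Ring1 mutants. Without double-mutant replicate 1, control replicate 1 or control replicate 2 the adjusted p of Mnd1 was 0.0587, 0.0538 or 0.0526. Tex15, which mouse germ cells need to load the recombinases, read 6.86, 6.95 and 6.996 log2 in the double mutants, 6.36, 6.27 and 6.72 in the Ring1 mutants, 6.09, 6.07 and 5.77 in the Rnf2 mutants and 6.36, 6.60 and 6.48 in the controls. The double mutants were highest (0.46 ± 0.12 log2 against control; limma, adjusted p = 0.0104), and the Rnf2 mutants lay below all other arrays without passing against control (-0.50 ± 0.12 log2; limma, adjusted p = 0.269). Dmc1 itself read 3.94, 4.03 and 3.94 log2 in the double mutants, 3.51, 3.37 and 3.60 in the Ring1 mutants, 3.39, 3.60 and 3.11 in the Rnf2 mutants and 2.98, 3.61 and 4.02 in the controls. The control arrays of Dmc1 straddled background and overlapped those of the double mutants, with an interval of -0.01 to 0.88 log2. The window of Psmc3ip (chr11:101095386-101095685, minus strand) is shown as that of the gene with the largest fall, and it holds none of the 3 motifs and is therefore all in lower case.
Psmc3ip: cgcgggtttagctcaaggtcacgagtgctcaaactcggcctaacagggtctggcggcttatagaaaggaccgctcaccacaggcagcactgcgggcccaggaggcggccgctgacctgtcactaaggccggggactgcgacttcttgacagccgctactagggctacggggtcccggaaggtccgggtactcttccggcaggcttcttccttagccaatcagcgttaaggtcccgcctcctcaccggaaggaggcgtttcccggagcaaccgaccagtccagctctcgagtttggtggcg

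Of the crossover genes, the double mutant against control called only Msh4. It encodes the partner of MSH5 in a MutS pair that steadies recombination intermediates, and read 5.88, 5.95 and 5.82 log2 in the double mutants, 6.05, 6.25 and 6.12 in the Ring1 mutants, 6.02, 6.03 and 6.23 in the Rnf2 mutants and 6.11, 6.19 and 6.11 in the controls. The double mutants were the lowest 3 arrays by a small margin, 0.25 ± 0.08 log2 against control (limma, adjusted p = 0.0237). The call was lost without double-mutant replicate 1, double-mutant replicate 3 or control replicate 2 (adjusted p = 0.0569, 0.0813 and 0.0792), and with arrays centred on the most abundant 25% of genes (adjusted p = 0.18). The fall against the Ring1 mutant was lost without double-mutant replicate 1, double-mutant replicate 3 or Ring1-mutant replicate 2 (limma, adjusted p = 0.0521, 0.0732 and 0.0921). Msh5 was below background on every array, with an interval of -0.25 to 0.33 log2 for double mutant minus control. Mlh3, part of the nuclease that resolves intermediates into crossovers, had an interval of -0.40 to 0.26 log2, and Hfm1, a helicase of crossover formation, one of -0.04 to 0.65 log2. Tex11, an X-linked gene that mouse spermatocytes need for crossovers, read 2.93, 3.12 and 3.31 log2 in the double mutants, 2.75, 2.91 and 3.06 in the Ring1 mutants, 2.70, 2.79 and 2.79 in the Rnf2 mutants and 2.93, 2.93 and 2.75 in the controls, all below background.

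None of the 30 genes was called in either single mutant against control (limma). In the Ring1 mutant 0.765% of all genes were called. There the 30 changes ran from -0.34 to 0.46 log2, 4 had an unadjusted p under 0.05, where 10.6% of all genes did, and the smallest adjusted p was 0.0873, for Sycp2. In the Rnf2 mutant 0.138% of all genes were called. There the 30 changes ran from -0.50 to 0.38 log2, 5 had an unadjusted p under 0.05, where 6.67% of all genes did, and the smallest adjusted p was 0.269, for Tex15. With the trended and robust variance of limma, 1 gene was called higher and 1 lower in the Ring1 mutant. The adjustment was made within each comparison, so a change needed a smaller unadjusted p to pass where fewer genes were called. Sycp2 changed by 0.40 log2 in both the Ring1 and the double mutant against control (limma, adjusted p = 0.0873 and 0.00477). A gene not called in a single mutant may thus still have changed there.

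Against the Ring1 mutant, 12 of the 30 genes were higher in the double mutant and 2 were lower, where 15.0% of all genes were higher and 16.6% lower (31.6% called). Against the Rnf2 mutant, 15 were higher and 4 lower, where 14.0% of all genes were higher and 16.3% lower (30.2% called). With arrays centred on their median 10 were higher and 5 lower there, where 2178 of all genes were higher and 6934 lower. Of the 20 granulosa and cumulus markers 11 were called in that comparison, 3 higher and 8 lower, and 4 of the 8 were at least 2-fold lower; their part in the 19 calls was not tested. These comparisons and the one with control share the double-mutant arrays. Rbm46 was at least 11.9-fold higher than in either single mutant, both of which were at background (fitted 4.35 ± 0.09 log2 against the Ring1 mutant and 4.22 ± 0.09 log2 against the Rnf2 mutant; limma, adjusted p = 2.06e-11 and adjusted p = 2.94e-11). Syce1 was higher by 2.68 ± 0.10 and 2.47 ± 0.10 log2 (limma, adjusted p = 2.62e-09 and 5.39e-09). The calls of Sycp2 and Hormad2 did not hold against the Ring1 mutant (interval of 0.06 to 0.54 log2 for Hormad2), nor that of Hormad1 against the Rnf2 mutant. The calls of Sycp2 and Tex12 against the Rnf2 mutant were lost without Rnf2-mutant replicate 1 (adjusted p = 0.105 and 0.0518) or double-mutant replicate 2 (adjusted p = 0.0851 and 0.0576), that of Sycp2 without double-mutant replicate 3 (adjusted p = 0.0945) and that of Tex12 without Rnf2-mutant replicate 2 (adjusted p = 0.0699). Calls made against the Rnf2 mutant and not against control were those of Dmc1 (0.60 ± 0.20 log2; limma, adjusted p = 0.0417) and Tex11 (0.36 ± 0.10 log2; limma, adjusted p = 0.0195), which were higher, Tex11 below background in every genotype and Dmc1 in the Rnf2 mutant, and of Dazl (-0.20 ± 0.07 log2; limma, adjusted p = 0.0319) and Tex14 (-0.35 ± 0.12 log2; limma, adjusted p = 0.0391), which were lower. Each of these 4 was lost when some single array was left out, with an adjusted p of up to 0.155 for Dmc1 without Rnf2-mutant replicate 3, 0.0834 for Tex11 without double-mutant replicate 3, 0.127 for Dazl without Rnf2-mutant replicate 2 and 0.161 for Tex14 without the same array. Between the single mutants, Dazl alone was called, higher in the Rnf2 than in the Ring1 mutant by 0.38 ± 0.07 log2 (limma, adjusted p = 0.0206), where 0.987% of all genes were called and 0.664% were higher. Leaving out any 1 of Ring1-mutant replicates 1, 2 and 3 or Rnf2-mutant replicates 1 and 2 raised that adjusted p to between 0.0511 and 0.0963. Dazl, Prdm9 and Msh5 lie on chromosome 17, as does Ring1, whose alleles differ between the single mutants. The part of DNA linked to Ring1 in this mixed strain was not tested.

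Whether Rnf2 loss did more in oocytes without Ring1 was tested by the interaction, the change on Rnf2 loss in Ring1-null oocytes minus that in Ring1-intact oocytes. It was called in 10 of the 30 genes, 9 positive and 1 negative, where 19.0% of all genes were called, 10.0% positive and 9.01% negative. In Ring1-null oocytes Rnf2 loss came with a change of 4.35 log2 in Rbm46, against 0.01 in Ring1-intact oocytes, and of 3.24 against 0.10 in Meioc and 2.68 against 0.13 in Syce1. These are fitted values, and Rbm46 and Meioc were above background in the double mutant alone. The differences were 4.34 ± 0.12, 3.14 ± 0.30 and 2.55 ± 0.15 log2 (limma, adjusted p = 1.31e-09, 1.52e-05 and 2.51e-07). Sycp3 showed a difference of 1.495 ± 0.19 log2 (limma, adjusted p = 0.000128), and Smc1b one of 0.93 log2. Boll and Taf7l were called too, but were below background in every genotype, so their fitted differences are not measured sizes. Tex15 differed in another way, with changes of similar size and opposite sign, 0.48 log2 in Ring1-null oocytes and -0.50 in Ring1-intact oocytes, and a difference of 0.99 ± 0.17 log2 (limma, adjusted p = 0.00135). Psmc3ip was the negative one, with -0.52 log2 in Ring1-null and -0.04 in Ring1-intact oocytes (difference -0.49 ± 0.10; limma, adjusted p = 0.00357). Sycp1, above background in the double mutant alone by its mean, passed with a fitted 0.63 ± 0.18 log2 (limma, adjusted p = 0.0305), and its adjusted p reached up to 0.073 in the 11 of 21 alternatives where the call was lost.

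**Figure D3:**
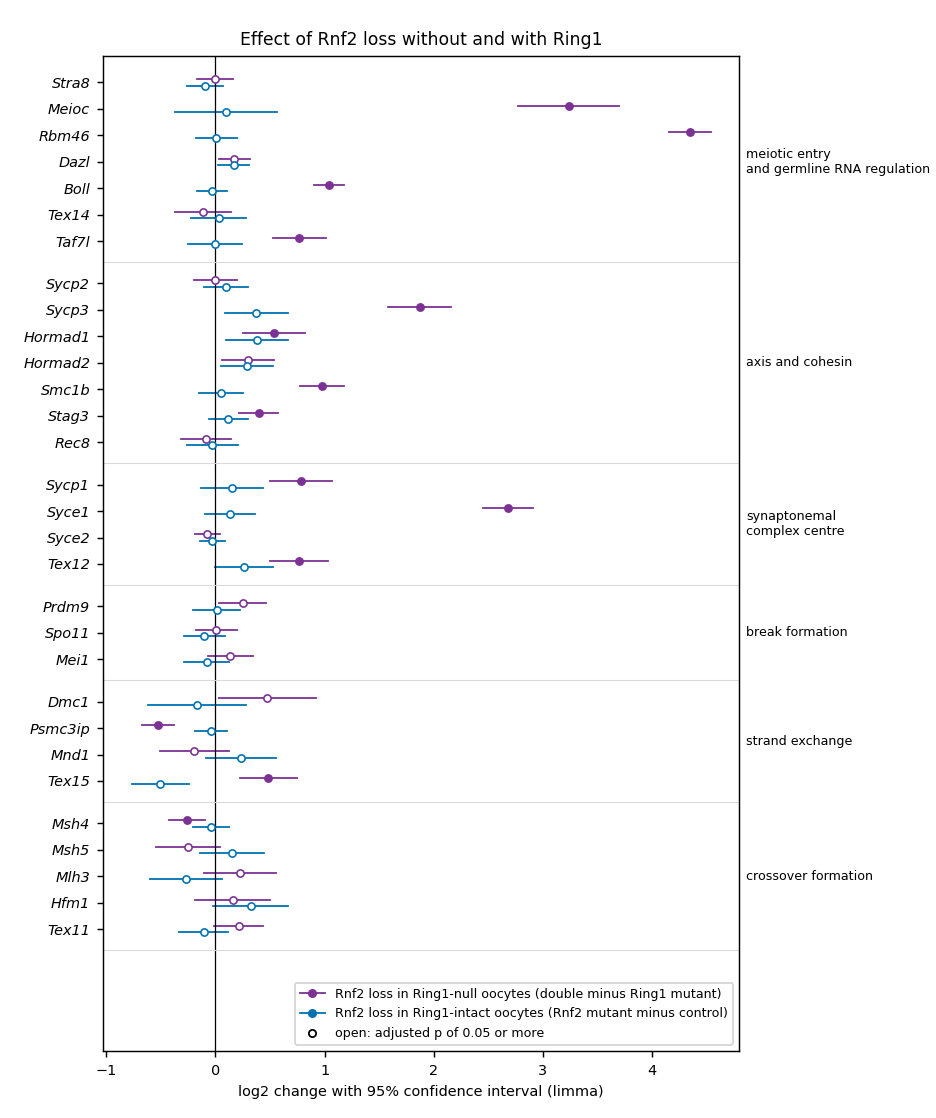
Log2 change on loss of Rnf2 (horizontal axis) for each gene, in Ring1-null oocytes (double mutant minus Ring1 mutant) and in Ring1-intact oocytes (Rnf2 mutant minus control), with 95% confidence intervals from limma. Rbm46, Meioc, Syce1 and Sycp3 are far right of 0 in Ring1-null oocytes and at 0.38 log2 or less in Ring1-intact ones.

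The motifs were counted over the promoter windows, with no test. Of the 13 risen genes in the RefSeq table, 8 (61.5%) held CACGTG in a window, as did 1 of the 14 other genes (7.14%, Syce2) and 7.15% of all 32851 windows. Counted by window, as all windows were, it was in 9 of 15 of the risen genes (60%) and 1 of 17 of the others (5.88%). Among all windows with 10 to 39 CpG dinucleotides, the range of the windows of the risen genes, the share was 10.9%. Among windows of every gene on the arrays called higher in the double mutant it was 10.8%. The genes with an E-box were Rbm46, Boll, Taf7l, Sycp3, Hormad1, Stag3, Sycp1 and Tex12, and those without one were Meioc, Sycp2, Hormad2, Smc1b and Syce1, so that 2 of the 4 largest rises had the motif and 2 had not. GGCGGGAA was in 3 of the 13 risen genes and 4 of the 14 others, against 2.19% of all windows, and CNCCTCAG in 4 of the 13 and 5 of the 14, against 7.94%. Among windows with 10 to 39 CpG dinucleotides the shares of these motifs were 4.34% and 9.25%. Among windows of every gene called higher in the double mutant they were 3.71% and 8.95%. The fallen Psmc3ip, Mnd1 and Msh4 held none of the 3. Matches to different motifs overlapped in 2 windows, of Syce2 and Prdm9. CpG dinucleotides numbered 10 to 39 (median 24) in the windows of risen genes and 6 to 41 (median 19) in those of the others, against a median of 7 over all windows. A match says that these letters are in the window and not that a factor is bound there, and the shares describe genes from a list drawn up with earlier results of these data known.

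**Figure D4:**
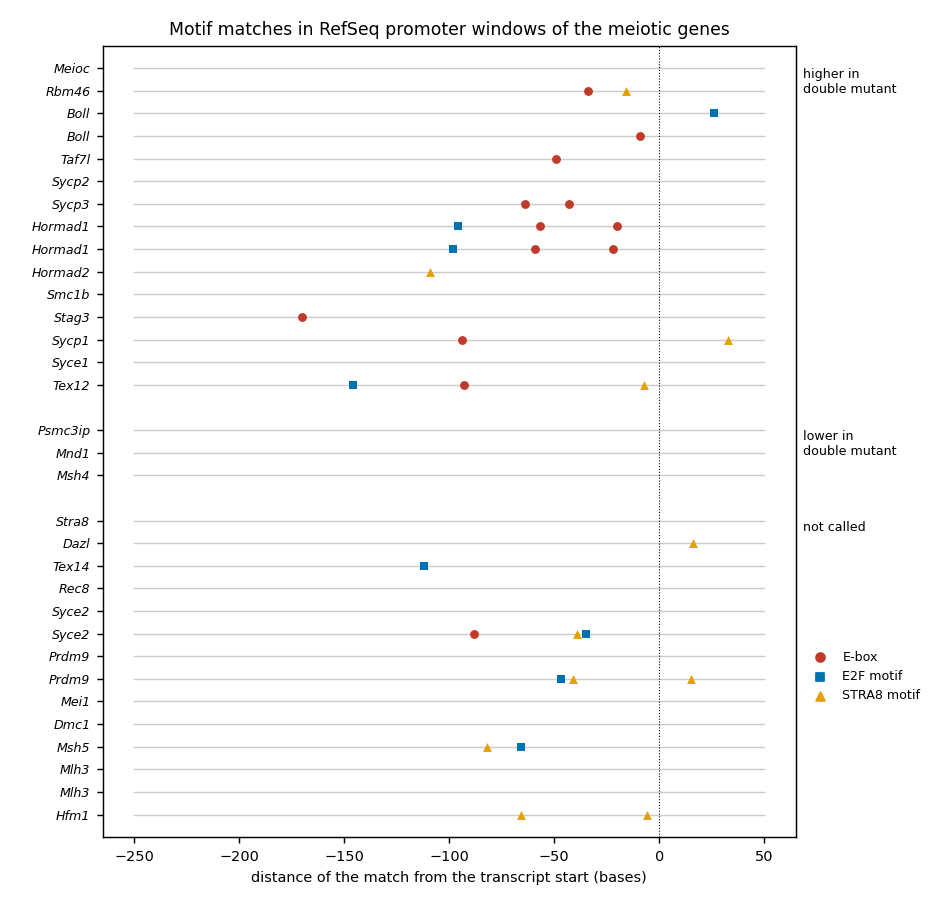
Position of E-box, E2F and STRA8 motif matches (symbols) relative to the transcript start in bases (horizontal axis) in each RefSeq promoter window of the meiotic genes, with risen genes above, fallen genes in the middle and genes not called below. Lines show the window from 250 bases before to 50 after the start, and a gene with 2 starts has 2 lines. E-boxes lie between -170 and -9 in windows of 8 risen genes and at -88 in one window of Syce2.

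Other genes of meiotic prophase, from a list of 48 of which 43 were measured, went both ways. In the double mutant against control 13 rose and 11 fell, where 14.4% of all genes rose and 17.5% fell, with a median change of -0.08 log2. With arrays centred on their median 9 rose and 18 fell, and with centring on the most abundant 25% of genes 17 rose and 7 fell. Spata22, a partner of MEIOB on single-stranded DNA, read 5.80, 6.19 and 5.79 log2 in the double mutants, 2.42, 2.52 and 2.22 in the Ring1 mutants, 2.49, 2.11 and 2.43 in the Rnf2 mutants and 2.36, 2.22 and 2.39 in the controls. Only the double mutants were above background, so Spata22 was at least 4.28-fold higher there than in the controls (fitted 3.60 ± 0.13 log2; limma, adjusted p = 1.32e-09). Ccnb1ip1, the crossover factor HEI10, rose by 2.02 ± 0.08 log2 (limma, adjusted p = 3.71e-09) and was the one gene of this list called in a single mutant, higher by 0.45 ± 0.08 log2 in the Ring1 mutant than in control (limma, adjusted p = 0.0277). That single-mutant call was lost without Ring1-mutant replicate 1, 2 or 3 (limma, adjusted p = 0.0822, 0.0671 and 0.0999), without control replicate 1 or 2 (adjusted p = 0.112 and 0.0965), and with the replicate block (adjusted p = 0.052). Iho1, a factor of break formation, rose by 1.53 ± 0.12 log2 and Prr19, a crossover factor at background in the controls, by a fitted 1.18 ± 0.17 log2, at least 1.79-fold (limma, adjusted p = 1.42e-06 and 0.000203). Of the 24 calls of this list in the double mutant against control, 7 were lost when 1 array was left out, among them those of Zglp1, Rad21l, Brca2, Rad50, Terb2 and Cdk2. The nuclease gene Mus81 fell by 0.78 ± 0.09 log2, the crossover gene Shoc1 by 0.69 ± 0.08, the BRCA2-binding Hsf2bp by 0.53 ± 0.07 and Sun1, which ties telomeres to the nuclear envelope, by 0.40 ± 0.05 log2 (limma, adjusted p from 2.09e-05 to 0.000107).

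In the interaction 9 genes of that list were positive and 8 negative, where 10.0% of all genes were positive and 9.01% negative. Besides Spata22 (3.52 log2), Iho1 (1.76), Ccnb1ip1 (1.18) and Prr19 (1.04), the positive ones were Rad21l (1.03), Zglp1 (0.89), Cntd1 (0.70), Zcwpw1 (0.62) and Cdk2 (0.42). Of these, Spata22, Prr19 and Rad21l were above background in the double mutant alone by their means, so their values are fitted ones. The negative ones were Rnf212, which was below background in every genotype, Shoc1 (-0.76 log2), Mus81 (-0.75), Fignl1 (-0.39), Sun1 (-0.38), Hsf2bp (-0.37), Fkbp6 (-0.35) and Brca2 (-0.33). The calls of Fignl1, Fkbp6 and Brca2 were lost without control replicate 1 (limma, adjusted p = 0.0523, 0.068 and 0.0632), among other single arrays. Against the Ring1 mutant 14 were higher and 11 lower in the double mutant, where 15.0% of all genes were higher and 16.6% lower. Against the Rnf2 mutant 11 were higher and 10 lower, where the shares were 14.0% and 16.3%. Further genes called there included the higher 4930447C04Rik, which was below background on all arrays, Exo1 (0.33 and 0.32 log2), Mei4 (0.27 and 0.33), Rec114 (0.32 against the Ring1 mutant) and Majin (0.39 against the Ring1 mutant). Kash5 was lower (-0.57 and -0.44 log2). Against the Ring1 mutant, without double-mutant replicate 3 the calls of Mei4 and Majin were lost (limma, adjusted p = 0.0614 and 0.106), without double-mutant replicate 2 that of Rec114 (adjusted p = 0.054) and without Ring1-mutant replicate 2 that of Majin (adjusted p = 0.104). Those of Mei4 and Majin were also lost without Ring1-mutant replicate 3 (adjusted p = 0.0512 and 0.0755). Against the Rnf2 mutant, that of 4930447C04Rik was lost without double-mutant replicate 1 or Rnf2-mutant replicate 3 (adjusted p = 0.0956 and 0.103). With arrays centred on their median, Exo1 was lost against the Ring1 and Rnf2 mutants (limma, adjusted p = 0.0604 and 0.0791), as was Mei4 (adjusted p = 0.161 and 0.0728). Rec114 and Majin were then lost against the Ring1 mutant (adjusted p = 0.11 and 0.0718), and 4930447C04Rik against the Rnf2 mutant (adjusted p = 0.146). The interaction of Cdk2 was lost there too (adjusted p = 0.0878).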

How the data were processed

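RNA was amplified, labelled and hybridised to Affymetrix whole-transcript arrays, 1 per sample. The deposited values are log2 intensities per probe set, and per the submitters' processing notes R 2.10.0 and affy were used. How the background was corrected and the probes normalized and summarized is not stated in the labels or the value table. The values were used as deposited, and the number of arrays limits their precision. Of 34760 probe sets, 23533 name a single gene, 1052 several and 10144 none, and 31 are not in the annotation; the names of 1833 were kept as annotated. The probe set with the highest mean was used per gene, giving 21688 genes. Groups are those of the sample labels.

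All 12 arrays were fitted in limma 3.58.1 (R 4.3.3) with 1 mean per genotype, and 7 contrasts were tested with Benjamini-Hochberg adjustment over all genes, called at an adjusted p under 0.05. Errors are standard errors of the fit. The fit was tested on simulated data. Figures used matplotlib 3.10.9. The text gives all 30 members, the 8 other prophase genes with the smallest adjusted p in the double mutant against control, and those called elsewhere, apart from some genes that are not reported here. The members, gene lists and motifs were chosen with earlier results of these data known. The labels do not say whether a replicate number pairs samples of different genotypes. Deviations from the group means correlated from -0.157 to 0.204 between arrays of the same number (18 pairs). Between arrays of other numbers they correlated from -0.149 to 0.143 (36 pairs). These ranges do not settle whether the samples are paired, so the main fit had no block. Alternatives changed the probe sets, filter, scaling, variance model, array weights, arrays fitted and block. The probes' position relative to the deleted parts of Ring1 and Rnf2 was not used here.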

Additional observations from a re-analysis of the deposited data

Results flagged for a closer look

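In 10 of the 30 genes the change on Rnf2 loss in Ring1-null oocytes differed from that in Ring1-intact oocytes by the test of the difference itself (limma interaction, adjusted p under 0.05; 19.0% of all genes were called). The fitted difference was 4.34 log2 for Rbm46, 3.14 for Meioc, 2.55 for Syce1, 1.5 for Sycp3 and 1.07 for Boll. It was 0.99 log2 for Tex15, 0.93 for Smc1b, 0.77 for Taf7l, 0.63 for Sycp1 and -0.49 for Psmc3ip. Boll and Taf7l were below background in every genotype, and Rbm46, Meioc and Sycp1 were above it in the double mutant alone by their means, so the values of these 5 are those of the fit and not measured sizes. Rbm46, Meioc, Syce1, Boll and Smc1b had changes of at most 0.13 log2 in Ring1-intact oocytes, whereas the Tex15 value joins a change of 0.48 log2 in Ring1-null oocytes and of -0.50 in Ring1-intact oocytes.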

How the results depend on the processing

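Of 61 calls of the 30 genes over the 7 comparisons, 48 held under every alternative run and 13 were lost under at least 1, while 28 of 149 uncalled results were called under at least 1; in no called result did the sign change. In the double mutant against control, 12 to 16 genes were higher under the alternatives (14 as reported). The 12 came from testing only genes above the background level. That setting left out genes below it, Boll and Taf7l among them, so their calls were judged by the other alternatives only. Centring on the array median moved the median of all genes from -0.04 to -0.16 log2 and gave 6 lower genes (3 as reported), and centring on the most abundant 25% moved it to 0.07. The share of higher among all called genes was 45.1% as deposited, 23.3% with median centring, 67.0% with centring on the most abundant 25% and 50.5% after quantile normalization. Leaving out 1 array gave 1 to 4 lower genes there. Median centring also gave 4 lower genes against the Ring1 mutant (2 as reported) and 2 negative interactions (1 as reported), and centring on the most abundant 25% gave 1 and, against the Rnf2 mutant, 2 (4 as reported). Testing every probe set, or only the groups compared, gave 2 lower genes against the Rnf2 mutant. Without 1 array the lower genes numbered 1 to 2 against the Ring1 mutant and 2 to 4 against the Rnf2 mutant, and the negative interactions 1 to 2. Between the single mutants, Dazl was lost with only the groups compared (0 genes higher) and in leave-one-out fits (0 to 1). The trended and robust variance gave 1 higher and 1 lower gene in the Ring1 mutant against control, and 1 lower gene in the Rnf2 against the Ring1 mutant, each 0 as reported. The labels do not say whether the replicate number pairs the samples. With it as a block, the double mutant had 14 genes higher and 3 lower against control. Against the Rnf2 mutant it had 15 higher and 3 lower, the Tex14 call being lost. Calls over all genes then numbered 18 in place of 30 in the Rnf2 mutant against control. Between the single mutants they numbered 141 in place of 214. Members above background in the controls numbered 8 with the 99th percentile of olfactory receptor genes (6.29 log2) and 18 with their median plus 3 MAD (3.68 log2), against 17 as reported. Genes at background, such as Boll, Taf7l and Tex11, carry little signal for a fold. The causes of these shifts were not tested.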
